A study of Mus musculus with 36 samples.

Results

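The 10 genes of bone and bone resorption described here in odor-exposed and unexposed mouse olfactory tissue are Ctsk, Acp5, Mmp9, Mmp13, Mmp14, Spp1, Ibsp, Bglap, Col1a1 and Jdp2. They are 10 of the 57010 gene identifiers in the deposited tables, and all 10 passed the filter on low counts in each set of libraries. The members were chosen on measured values. Ctsk, Acp5 and Jdp2 had been picked out from the comparison of acetophenone with its controls, Mmp13, Mmp14 and Spp1 from that of the mint fragrance, and Mmp14 also from that of the floral and mint mixture. How Mmp9, Ibsp, Bglap and Col1a1 were chosen is not stated. The values of these 3 comparisons, and of others that use their odor libraries, are therefore given as a description, and no support is drawn from them.

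The libraries hold RNA bound to ribosomes whose protein S6 was phosphorylated (pS6), pulled down with an antibody from olfactory epithelium of wild-type C57BL/6J male mice 8 weeks old. Each mouse was housed alone, spent 4 h without odor and then 90 min with its odor, given as 10 µL on filter paper. There were 3 sets of 4 groups with 3 mice a group, 36 libraries in all. The AD set held acetophenone, decanal, their mixture (AD mixture) and no-odor mice on empty paper (AD control). The OC set held octanal, cis-3-hexenol, their mixture (OC mixture) and its own no-odor mice (OC control), and the FM set a floral fragrance, a mint fragrance, their mixture (FM mixture) and its own no-odor mice (FM control). The binary mixtures held equal parts of both odorants, and the fragrances are blends whose composition is not given in the labels. Each set is its own batch in the labels, so odors were compared with the controls of the same set. No library of unselected RNA from the same tissue was used here, so the values are levels within the pulled-down RNA.

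Bone is laid down by osteoblasts, which secrete type I collagen and the proteins that bind mineral to it, and is taken away by osteoclasts, large cells of the macrophage lineage that seal off a patch of bone, acidify it and digest its matrix with proteases. Osteoclasts form under the cytokine RANKL, whose receptor acts through AP-1 transcription factors and NFATc1. In the nose the olfactory epithelium lies on thin scrolls of bone, the turbinates, so dissected tissue can carry bone cells with it. The labels name the tissue as olfactory epithelium and do not mention bone.

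Library totals ran from 16.04 M to 26.39 M counts, and no pair of libraries of a group looked like a repeat of one library. Levels are CPM, counts relative to the library total scaled by TMM, and changes are log2 ratios of odor over control. Marker levels quoted in this paragraph are CPM of the unscaled total. Omp, the marker of mature olfactory sensory neurons, stood at 4186 to 13060 CPM. Osteoblast and osteocyte lineage genes beyond the members were present in every library, with Sp7, a transcription factor needed for osteoblasts, at 19.3 to 118 CPM and Dmp1, an osteocyte matrix protein, at 21.8 to 171 CPM, whereas Sost, made by mature osteocytes, stood at 0 to 0.735 CPM. Among osteoclast genes Tnfrsf11a, the RANKL receptor, stood at 1.06 to 8.92 CPM. Ocstamp, a membrane protein of osteoclast cell fusion, stood at 0.469 to 5.81 CPM and Calcr, the calcitonin receptor, at 0 to 1.56 CPM. The members thus came with other genes of the bone lineages, but from these values their place on the turbinates could not be checked.

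The members differed widely in abundance. Per kilobase of exon, AD control mice had 1387 ± 349 CPM of Spp1, 499 ± 34.3 CPM of Bglap, 269 ± 22.6 CPM of Ctsk, 248 ± 23.5 CPM of Col1a1 and 203 ± 41.5 CPM of Ibsp (SD, n = 3). Below them came Acp5 at 155 ± 14.6, Mmp13 at 86.8 ± 22.3, Mmp9 at 42.4 ± 6.59, Jdp2 at 30.4 ± 2.68 and Mmp14 at 20.8 ± 1.79 CPM per kilobase. In this order the spreads (mean ± SD) of Ctsk and Col1a1, of Col1a1 and Ibsp, and of Ibsp and Acp5 overlapped, and those of the other neighbors did not. In OC control mice Bglap reached 1539 ± 607 CPM per kilobase and its spread overlapped that of Spp1 at 1707 ± 99.8. Together the members took 0.159% to 0.834% of a library's counts, with the lowest share in an octanal library and the highest in an OC control library.

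The start regions of 3 members are shown because they carry motifs named for transcription factors of these cells: one is an osteoclast enzyme, one a matrix collagenase and one an osteoblast matrix protein. The sequences are those of RefSeq on GRCm38.p6, 250 bases before to 50 after the gene start, 5′ to 3′ along the gene, and capitals mark the motif matches. Acp5 is the window at chr9:22130549-22130848 on the minus strand (the third of its listed starts), Mmp13 the one at chr9:7272264-7272563 on the plus strand, and Bglap the one at chr3:88384417-88384716 on the minus strand.
Acp5: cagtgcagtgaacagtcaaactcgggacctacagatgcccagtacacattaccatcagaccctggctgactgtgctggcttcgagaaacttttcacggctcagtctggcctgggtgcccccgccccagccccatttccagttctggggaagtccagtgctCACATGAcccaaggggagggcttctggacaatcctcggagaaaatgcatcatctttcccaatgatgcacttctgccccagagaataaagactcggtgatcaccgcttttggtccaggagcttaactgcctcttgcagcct
Mmp13: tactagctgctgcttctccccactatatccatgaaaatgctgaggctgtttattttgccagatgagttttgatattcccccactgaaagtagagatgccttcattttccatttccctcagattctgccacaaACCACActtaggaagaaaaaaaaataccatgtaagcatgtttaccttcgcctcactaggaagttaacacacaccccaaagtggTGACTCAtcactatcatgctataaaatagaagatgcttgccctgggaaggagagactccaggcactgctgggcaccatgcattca
Bglap: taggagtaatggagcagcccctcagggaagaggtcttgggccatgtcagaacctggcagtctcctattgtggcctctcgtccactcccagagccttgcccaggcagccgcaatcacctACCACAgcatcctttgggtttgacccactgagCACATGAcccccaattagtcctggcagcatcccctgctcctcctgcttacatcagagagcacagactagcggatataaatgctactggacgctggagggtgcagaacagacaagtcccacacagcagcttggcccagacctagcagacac
The letters of 4 motifs were searched on both strands: AP-1 (TGANTCA), the cyclic AMP response element (TGACGTCA), the M-box of the MITF family (TCANGTG) and the RUNX motif (TGTGGT). Acp5 and Bglap held an M-box match, Bglap and Mmp13 a RUNX match and Mmp13 an AP-1 match, and no matches overlapped in these windows. Of 32851 RefSeq start windows of the same length, 14.3% held the M-box letters, 16.8% the RUNX letters, 7.81% the AP-1 letters and 1.79% the response element. Windows were listed for 8 of the 10 members, 13 in all. RUNX matches were also found in one Spp1 window and in Mmp14, and the windows of Ctsk, Ibsp and Jdp2 held none of the 4 motifs. A match is a description of letters and says nothing of binding.

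**Figure D1:**
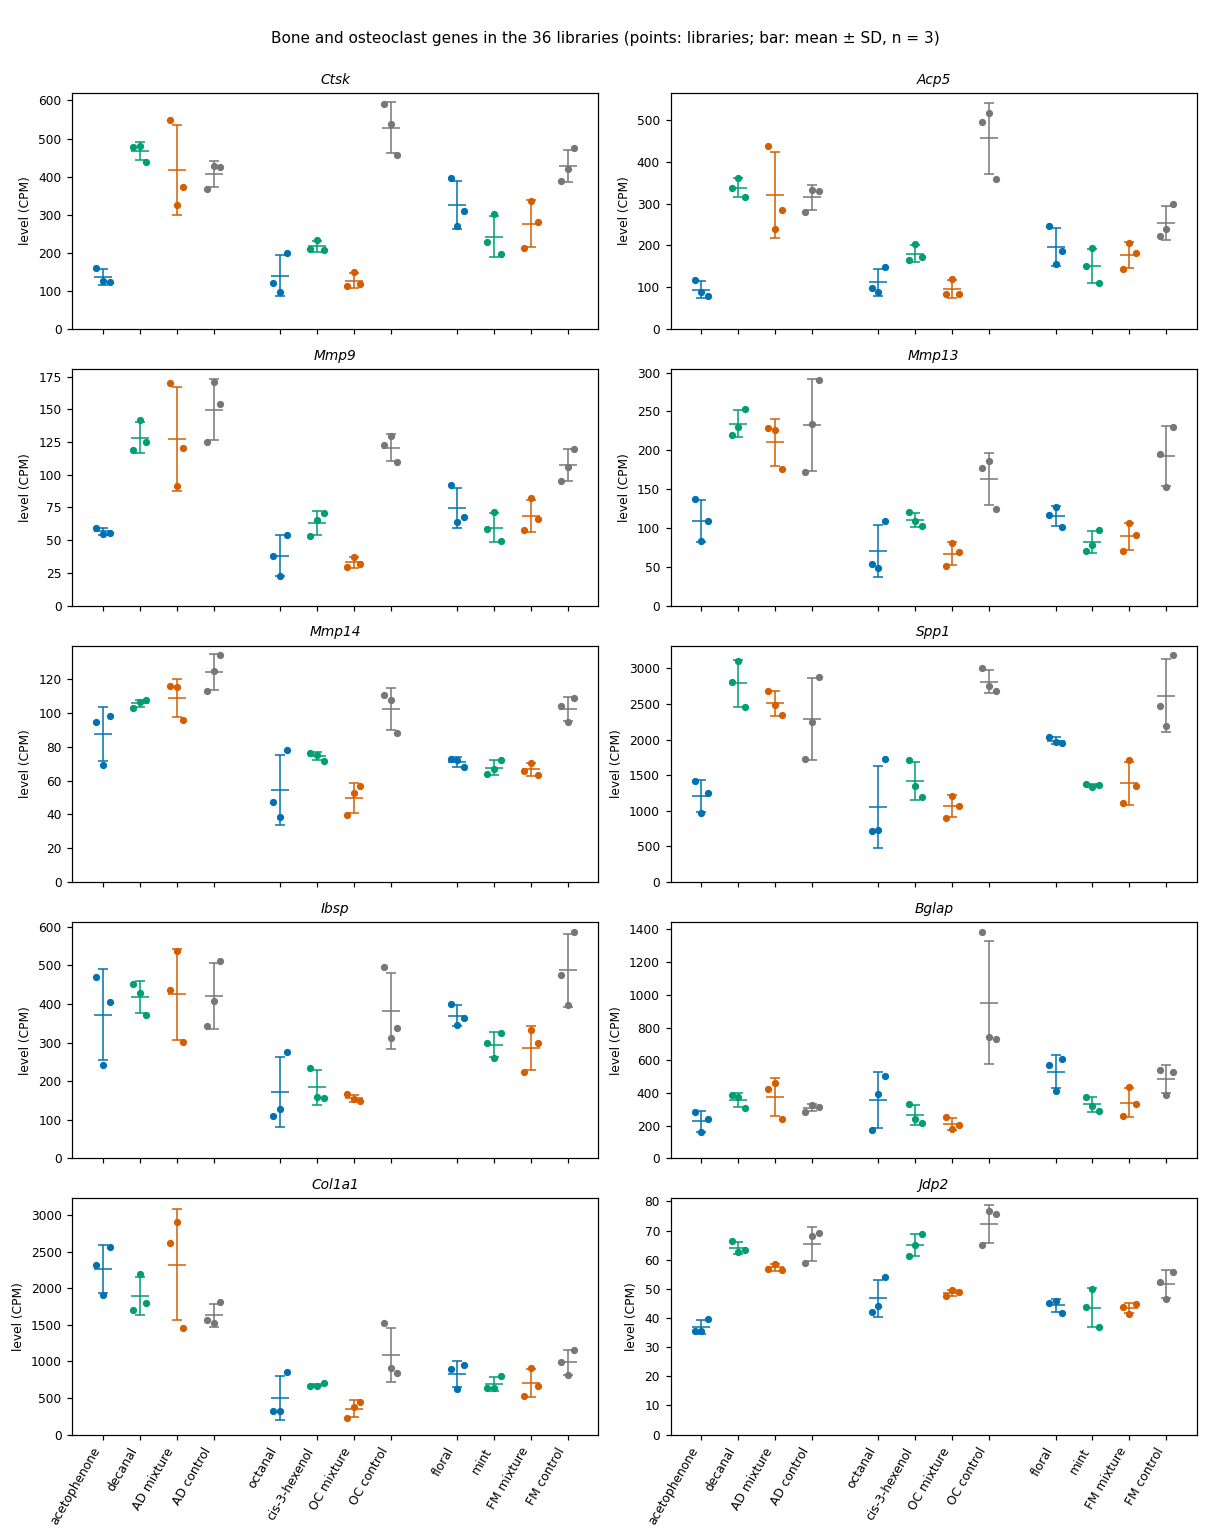
Level of each of the 10 genes in CPM in all 36 libraries, by group, with the odor groups left of their control within each set; points are libraries, bars are the mean ± SD of 3 mice. Ctsk stood at 98.3 to 235 CPM in the 9 odor libraries of the OC set and at 458 to 590 CPM in the OC control libraries.

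The OC set was not used to choose the 6 members whose choice is stated. For Mmp9, Ibsp, Bglap and Col1a1 this is not known, so their values in the OC set, tests included, are a description. The counts below include them. All 10 members fell after octanal, all 10 with the OC mixture and all 10 in the mean of the 3 odors (background 14.7%). Octanal and the OC mixture had median log2 changes of -1.31 and -1.51, where the medians over all genes tested were -0.04 and -0.05. Of all genes, 14.4% were called lower after octanal and 14.8% with the OC mixture (adjusted p under 0.05, edgeR quasi-likelihood test with Benjamini-Hochberg adjustment). After cis-3-hexenol all 10 changes were below 0 and 6 members were called lower, against a background of 3.16%. The median of the 10 was -0.96 against 0.05 for all genes. Among those 6, Ctsk, Acp5 and Spp1 are members whose choice is stated. Since the libraries are bulk samples, fewer cells of a type and less RNA per cell cannot be told apart, nor can a smaller pulled-down share of that RNA.

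The osteoclast genes fell with all 3 odors. Ctsk (ENSMUSG00000028111), the cathepsin with which osteoclasts digest collagen, had 122, 98.3 and 200 CPM after octanal, 210, 235 and 208 CPM after cis-3-hexenol and 114, 149 and 118 CPM with the OC mixture, against 590, 538 and 458 CPM in OC control mice. All 9 odor libraries lay below all 3 control libraries. The log2 change was -1.91 ± 0.22 (SE, 3.77-fold lower, adjusted p = 1.97e-05) after octanal, -1.28 ± 0.22 (2.43-fold, adjusted p = 0.00479) after cis-3-hexenol and -2.06 ± 0.22 (4.16-fold, adjusted p = 1.22e-05) with the mixture. Acp5 (ENSMUSG00000001348), the tartrate-resistant acid phosphatase by which osteoclasts are stained, had 98.9, 88.7 and 148 CPM after octanal, 166, 205 and 172 CPM after cis-3-hexenol and 83.4, 121 and 84.2 CPM with the mixture, against 494, 516 and 359 CPM in OC control mice. It too had no odor library within the control range, and its change with the mixture, -2.25 ± 0.22 or 4.75-fold lower (adjusted p = 6.02e-06), was the furthest from 0 of any member in any comparison with controls. Mmp9 (ENSMUSG00000017737), a gelatinase of osteoclasts and neutrophils, had 38.2, 22.2 and 53.8 CPM after octanal, 52.8, 65.3 and 71.1 CPM after cis-3-hexenol and 29.5, 37.2 and 32.1 CPM with the mixture, against 122.5, 130 and 110 CPM in OC control mice. Its log2 changes were -1.67, -0.94 and -1.88, each called (adjusted p = 8.69e-05, 0.0262 and 3.39e-05), with the groups apart in all 3.

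The bone matrix genes fell as well, with more spread between mice. Bglap (ENSMUSG00000074483), osteocalcin, a late osteoblast product, had 172, 396 and 505 CPM after octanal, 333, 242 and 218 CPM after cis-3-hexenol and 251, 177 and 202 CPM with the mixture, against 1385, 742 and 727 CPM in OC control mice. It was the one member lower after cis-3-hexenol, -1.85 ± 0.33, than after octanal, -1.41 ± 0.33 (adjusted p = 0.00663 and 0.00421), and it changed by -2.18 ± 0.34 with the mixture (adjusted p = 0.000202). The direct difference of octanal from cis-3-hexenol was 0.44, with a 95% interval of -0.20 to 1.07. Bglap transcripts align with those of Bglap2 at 98.9% and of Bglap3 at 96.4% identity over 439 bases, so its counts can be shared with these neighbors. Ibsp (ENSMUSG00000029306), bone sialoprotein, which binds mineral, had 110, 128 and 276 CPM after octanal, 235, 160 and 156 CPM after cis-3-hexenol and 166, 152 and 149 CPM with the mixture, against 495, 312 and 337 CPM in OC control mice. Every odor library lay below every control library, and the log2 changes were -1.15, -1.05 and -1.29 (adjusted p = 0.00643, 0.0412 and 0.00323). Spp1 (ENSMUSG00000029304), osteopontin, made by osteoblasts and osteoclasts alike, had 712, 722 and 1724 CPM after octanal, 1715, 1345 and 1194 CPM after cis-3-hexenol and 904, 1212 and 1072 CPM with the mixture, against 2999, 2751 and 2688 CPM in OC control mice. It fell 2.67-fold, 1.98-fold and 2.65-fold (adjusted p = 0.00131, 0.0463 and 0.00144). Col1a1 (ENSMUSG00000001506), a chain of type I collagen that fibroblasts also make, had 321, 326 and 852 CPM after octanal, 667, 669 and 699 CPM after cis-3-hexenol and 231, 382 and 452 CPM with the mixture, against 1518, 907 and 842 CPM in OC control mice. One octanal library reached the control range. Col1a1 fell 2.18-fold after octanal (adjusted p = 0.0193) and 3.07-fold with the mixture (adjusted p = 0.00238), and its change of -0.68 after cis-3-hexenol did not pass (adjusted p = 0.245). The octanal call was lost without OC control replicate 1 or octanal replicate 1 or 2 (adjusted p = 0.109, 0.0967 and 0.0635).

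The collagenase genes and Jdp2 were called after octanal and the mixture and not after cis-3-hexenol. Mmp13 (ENSMUSG00000050578), a collagenase of osteoblasts and cartilage, had 53.9, 48.4 and 108 CPM after octanal, 120, 108 and 103 CPM after cis-3-hexenol and 50.9, 79.9 and 68.7 CPM with the mixture, against 177, 187 and 124 CPM in OC control mice. It fell 2.32-fold and 2.45-fold after octanal and the mixture (adjusted p = 0.00233 and 0.00156). Mmp14 (ENSMUSG00000000957), the membrane-bound protease that activates other members of its family, had 47.1, 38.7 and 78.1 CPM after octanal and 39.8, 52.5 and 56.6 CPM with the mixture, against 111, 108 and 88.4 CPM in OC control mice, and fell 1.87-fold and 2.06-fold (adjusted p = 0.00416 and 0.00163). Jdp2 (ENSMUSG00000034271), a partner of AP-1 factors that is needed for osteoclast formation in mice, stood at 42.1, 44.2 and 54.0 CPM after octanal and 47.7, 49.5 and 48.8 CPM with the mixture, against 64.9, 76.6 and 75.6 CPM in OC control mice, a fall of 1.55-fold and 1.49-fold (adjusted p = 0.00197 and 0.0037). After cis-3-hexenol Jdp2 had 61.2, 64.9 and 68.8 CPM, overlapping the controls, and the changes of Mmp13, Mmp14 and Jdp2, -0.56, -0.46 and -0.16, did not pass (adjusted p = 0.208, 0.204 and 0.522). Mmp14 had 76.1, 75.4 and 71.9 CPM there, and both it and Mmp13 lay below all control libraries. Set against cis-3-hexenol directly, Mmp13 and Mmp14 did not pass with octanal (edgeR, adjusted p = 0.0782 and 0.137). Nor did they with the mixture (adjusted p = 0.0686 and 0.0742). The cis-3-hexenol count of 6 fell to 3 when any one of the 6 libraries compared was left out, the calls of Mmp9, Spp1 and Ibsp being the ones lost.

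**Figure D2:**
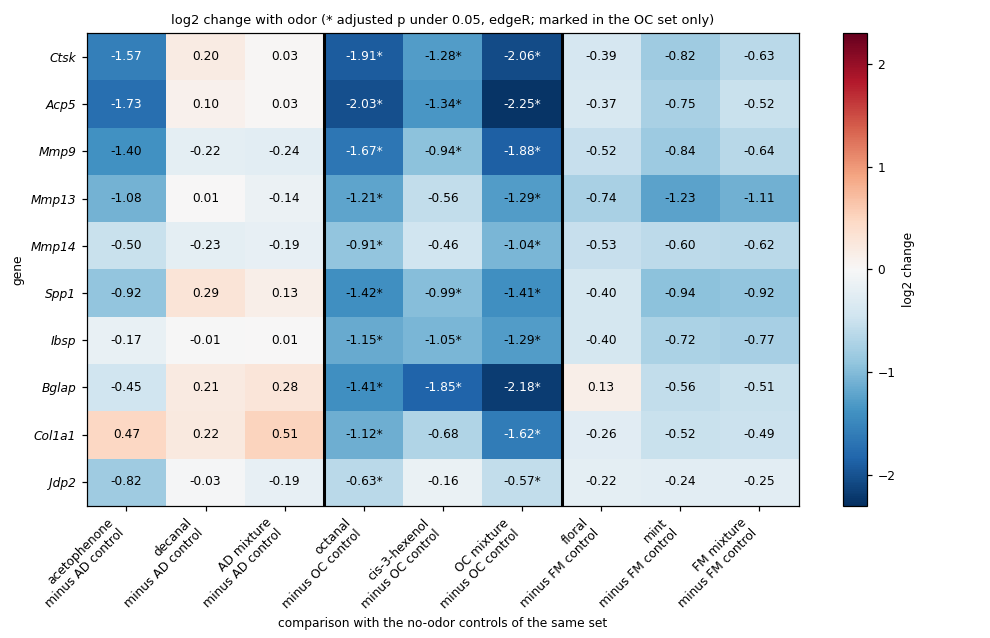
Log2 change of each of the 10 genes in the 9 comparisons of an odor group with the controls of its set; red is higher and blue lower with odor, and a star marks an adjusted p under 0.05 (edgeR), in the OC set only. The OC set is blue for every gene, while the decanal and AD mixture columns lie between -0.24 and 0.51. How Mmp9, Ibsp, Bglap and Col1a1 were chosen is not stated, so their stars are a description.

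The odor groups of the OC set were also compared with each other, which leaves the controls out. Against cis-3-hexenol, Ctsk, Acp5, Mmp9 and Jdp2 were lower after octanal (log2 -0.63, -0.69, -0.73 and -0.47) and with the mixture (-0.78, -0.91, -0.94 and -0.42). The background was 8.98% called lower for octanal and 5.03% for the mixture. The adjusted p-values were 0.0477, 0.0297, 0.0339 and 0.019 for octanal and 0.0289, 0.0141, 0.0168 and 0.0453 for the mixture. These calls depended on single libraries. For octanal the count was 0 without octanal replicate 1 or cis-3-hexenol replicate 2 or 3, 1 without octanal replicate 2 and 8 without octanal replicate 3, and for the mixture it was 0 without cis-3-hexenol replicate 2 or 3 or OC mixture replicate 1 or 3. Both pairs share the cis-3-hexenol libraries. Between the OC mixture and octanal no member passed by edgeR (background 0.0715% in either direction), 1 had an unadjusted p under 0.05 and DESeq2 called 0. The 10 changes there ran from -0.77 to 0.06, and the 95% interval for Ctsk was -0.57 to 0.28.

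Other RNA moved with the odor groups of the OC set. All 11 red blood cell genes of the list were called lower after octanal and the mixture and 10 of 11 after cis-3-hexenol. Their summed level was 7477 to 23250 CPM after octanal, 19610 to 28230 after cis-3-hexenol and 9131 to 20650 after their mixture, against 78350 to 92920 in OC control mice, and none of these genes was at 0 in a whole group. Of 12 neutrophil and granulocyte precursor genes 10, 3 and 8 were called lower (summed 117 to 225, 253 to 270 and 154 to 220 CPM, against 425 to 541). Of 11 macrophage genes 10, 4 and 9 were called lower (403 to 542, 569 to 897 and 432 to 626 CPM, against 1077 to 1428). Of 10 mature olfactory neuron genes 10, 7 and 10 were called higher, at 19560 to 28020, 11150 to 15910 and 21680 to 25200 CPM against 7674 to 10120. The share of all genes called higher is not given here, so nothing is read from these neuron counts. The part of these shifts in the result for the members was not tested.

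In the AD set the acetophenone comparison was one of the comparisons that chose the members, so its values are a description. Ctsk had 160, 125 and 124 CPM with acetophenone, against 368, 427 and 426 CPM in AD control mice, Acp5 had 117, 88.1 and 78.6 CPM against 280, 332 and 331 CPM, and Mmp9 had 59.6, 55.1 and 55.6 CPM against 125, 171 and 154 CPM. The log2 changes of these 3 osteoclast genes were -1.57, -1.73 and -1.40. Jdp2 stood at 35.5, 35.7 and 39.7 CPM against 58.8, 68.2 and 69.2 CPM (log2 -0.82), its lowest level in any group. Spp1, at 1420, 970 and 1243 CPM, lay below its controls at 1731, 2246 and 2878 CPM, and Mmp13 and Mmp14 changed by -1.08 and -0.50. The osteoblast products were split: Col1a1 had 2313, 1905 and 2565 CPM with acetophenone, all above the 1564, 1519 and 1806 CPM of AD control mice (log2 0.47), Ibsp had 471, 241 and 406 CPM overlapping the control values of 342, 408 and 512 CPM (-0.17), and Bglap had 280, 158 and 238 CPM below 285, 327 and 314 CPM (-0.45). By the same threshold 7 members were lower, where 1.27% of all genes were, and nothing is read from this count.

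**Figure D3:**
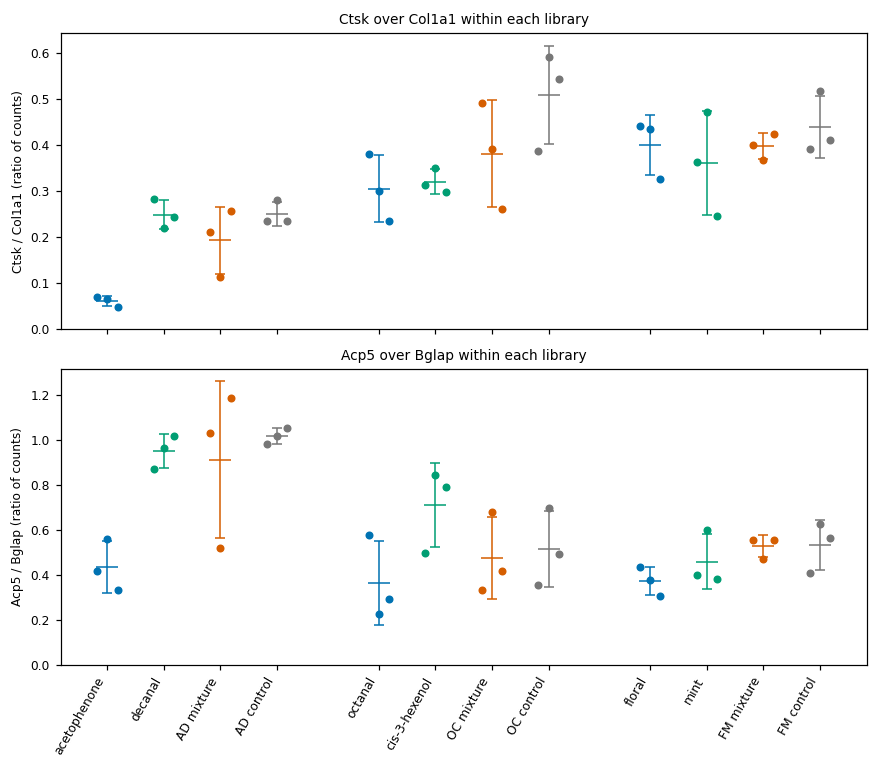
Ratio of counts of an osteoclast gene over a bone matrix gene within each library, Ctsk over Col1a1 above and Acp5 over Bglap below, for the 12 groups; points are libraries, bars are mean ± SD of 3 mice. Acetophenone libraries have the lowest Ctsk over Col1a1 ratios, 0.0485 to 0.0692, and the AD mixture library at 0.113 comes next.

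Within a library, the ratio of Ctsk to Col1a1 does not depend on the scaling. It was 0.0692, 0.0658 and 0.0485 with acetophenone, against 0.235, 0.281 and 0.236 in AD control mice, with no overlap. In the OC set the same ratio was 0.306 ± 0.073 after octanal, 0.321 ± 0.027 after cis-3-hexenol and 0.381 ± 0.116 with the mixture, against 0.508 ± 0.107 in OC control mice (SD, n = 3), and only the octanal and cis-3-hexenol libraries all lay below the controls. Acp5 over Bglap was 0.436 ± 0.115 with acetophenone, against 1.02 ± 0.04 in AD control mice. It was 0.364 ± 0.187, 0.711 ± 0.188 and 0.476 ± 0.182 after octanal, cis-3-hexenol and their mixture, against 0.515 ± 0.171 in OC control mice, and each odor group overlapped the controls. Ctsk over Acp5 stayed between 1.04 and 1.79 in all 36 libraries.

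Decanal and the AD mixture, which contains acetophenone in equal part with decanal, gave values of the bone genes near those of the controls. No member passed with either odor by edgeR, where 22.3% of all genes passed in either direction with decanal and 21.4% with the mixture. At an unadjusted p under 0.05 there were 0 members with decanal and 2 with the mixture, and DESeq2 called 0 in both. Ctsk had 479, 481 and 439 CPM with decanal and 550, 326 and 374 CPM with the mixture. The decanal libraries lay just above the control values given above and the mixture libraries on both sides of them, and its log2 changes were 0.20 (95% interval -0.12 to 0.51) and 0.03 (-0.28 to 0.35). Acp5 changed by 0.10 (-0.27 to 0.47) and 0.03 (-0.34 to 0.40). The largest change was that of Col1a1 with the mixture, 0.51 ± 0.19 (adjusted p = 0.0769), with 2610, 2897 and 1460 CPM, and it passed without AD mixture replicate 3 (0.76, adjusted p = 0.00296). Spp1 with decanal passed without AD control replicate 3 (0.49, adjusted p = 0.0464), and Mmp9 with the mixture without AD mixture replicate 1 (-0.51, adjusted p = 0.0321). These comparisons share their controls with the acetophenone one.

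Set against the other odors of the same set, acetophenone again stood apart, but its libraries had entered the choice and the values are a description. Against acetophenone the AD mixture had a log2 difference of 1.61 for Ctsk, 1.76 for Acp5, 1.16 for Mmp9, 1.05 for Spp1, 0.94 for Mmp13, 0.73 for Bglap and 0.63 for Jdp2. Those 7 were past the threshold, beside 11.3% of all genes in that direction. Acetophenone against decanal gave the same 7 lower, from -0.66 for Bglap to -1.83 for Acp5, beside 12.9% of all genes. Bglap was no longer past the threshold without acetophenone replicate 2 or 3 in either comparison, without AD mixture replicate 1 or 2 in the one, and without decanal replicate 1 or 2 in the other, and nothing is read from these counts. In both comparisons Col1a1 (0.04 and 0.25) and Ibsp (0.19 and -0.16) were near 0. Between the AD mixture and decanal no member passed by edgeR (0.287% of all genes did), none had an unadjusted p under 0.05, DESeq2 called 0, and the 10 differences ran from -0.16 to 0.29. Averaged over the 3 odors of the set, 4 members (Ctsk, Acp5, Mmp9 and Jdp2) were lower than in AD control mice, beside 7.99% of all genes. That average includes the acetophenone libraries, and nothing is read from the count.

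Markers of other cells also differed between the groups of the AD set. The red blood cell genes summed to 2578 to 13210 CPM in acetophenone mice, 39530 to 42320 in decanal mice and 30810 to 37360 in mixture mice, against 15600 to 21080 in AD control mice. Mature olfactory neuron genes were called higher with all 3 odors, 9, 6 and 6 of 10, at 15120 to 22870, 16230 to 16890 and 16280 to 18910 CPM against 8916 to 10400 in AD control mice. With decanal and the AD mixture, 22.3% and 21.4% of all genes were called in either direction. No share of genes called higher is given, so nothing is read from the neuron counts. Macrophage genes summed to 590 to 785 CPM in acetophenone mice, 898 to 1243 in decanal mice and 758 to 990 in mixture mice, against 852 to 1047 in AD control mice. Neutrophil genes summed to 183 to 191 CPM in acetophenone mice, 310 to 365 in decanal mice and 244 to 447 in mixture mice, against 295 to 341 in AD control mice. The part of these shifts in the acetophenone values was not tested.

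In the FM set the collagenase Mmp13, the membrane protease Mmp14 and the gelatinase Mmp9 had lower values with the floral fragrance. The floral comparison shares its controls with the mint and FM mixture comparisons that chose Mmp13, Mmp14 and Spp1, and whether it chose Mmp9 is not known, so its values too are a description. With the floral fragrance Mmp13 had 116, 127 and 101 CPM, against 195, 153 and 229 CPM in FM control mice, and Mmp14 had 73.0, 72.01 and 67.9 CPM against 104, 94.8 and 109 CPM. No floral library reached the control range of either gene. The log2 change was -0.53 ± 0.08 for Mmp14, -0.74 ± 0.17 for Mmp13 and -0.52 ± 0.16 for Mmp9 (SE). These 3 of 10 members were past the threshold, beside 5.35% of all genes, and nothing is read from the count. The count was 1 without floral replicate 3, when Mmp13 and Mmp9 were lost, and leaving out any one of the other libraries but floral replicate 1 also ended the call of Mmp9. Spp1 had 2037, 1961 and 1953 CPM, below the control values of 2469, 2192 and 3185 CPM (log2 -0.40). Bglap, at 570, 413 and 606 CPM against 541, 385 and 530 CPM, changed by 0.13 with a 95% interval of -0.23 to 0.48.

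Mint and the FM mixture are described only, since they chose members. With mint Mmp13 had 70.0, 78.2 and 97.8 CPM and with the FM mixture 70.5, 106 and 90.4 CPM, a log2 change of -1.23 and -1.11 from the controls given above. Spp1 had 1378, 1340 and 1358 CPM with mint and 1104, 1709 and 1346 CPM with the mixture (log2 -0.94 and -0.92), and Ctsk 229, 302 and 197 CPM and 214, 336 and 281 CPM, against 389, 420 and 474 CPM in FM control mice (-0.82 and -0.63). Ibsp changed by -0.72 and -0.77, Bglap by -0.56 and -0.51, Col1a1 by -0.52 and -0.49, and Jdp2 by -0.24 and -0.25. All 10 members were below 0 in both. By the threshold 7 and 6 members were lower, with backgrounds of 4.07% and 3.22%, and nothing is read from these counts. Averaged over the 3 odors 7 members were past the threshold, beside 8.22% of all genes, and since this mean holds the libraries that chose members nothing is read from it either.

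The direct comparisons among the FM odors use the mint or FM mixture libraries that chose members and are a description, and none called a member by edgeR. Floral against mint gave positive differences for all 10, from 0.02 for Jdp2 to 0.69 for Bglap, of which 5 had an unadjusted p under 0.05 (background 0.354% called in either direction), and DESeq2 called 1. The FM mixture against the floral fragrance had 4 at an unadjusted p under 0.05 (background 0.12%) and 1 call by DESeq2, and the FM mixture against mint had 0 (background 0.104%) and no call by DESeq2. Of 11 red blood cell genes 6 were called higher with the floral fragrance, and the list summed to 38490 to 74230 CPM with floral, 33660 to 47430 with mint and 28350 to 49930 with the mixture, against 30430 to 33050 CPM in FM control mice. The share of all genes called higher with floral is not given, and nothing is read from that count. Macrophage genes summed to 499 to 668, 543 to 690 and 621 to 748 CPM, against 594 to 805, and mature olfactory neuron genes to 20490 to 23350, 22670 to 24160 and 21480 to 23370 CPM, against 12860 to 14760. The part of these shifts in the members' values was not tested.

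The size of the odor effect was compared between sets in 1 fit of all 36 libraries, each odor mean against its own controls. The AD and FM means include libraries that chose members, so the differences are a description. The effect was lower in the OC set than in the AD set for 8 members, beside 11.2% of all genes, with the widest differences for Bglap (-1.82 ± 0.33), Col1a1 (-1.54 ± 0.33), Acp5 (-1.33 ± 0.26) and Ctsk (-1.30 ± 0.24). Mmp13 (-0.61, 95% interval -1.14 to -0.08) and Jdp2 (-0.10, -0.33 to 0.13) did not pass. Against the FM set the OC effect was lower for 4 members, Acp5 (-1.31), Ctsk (-1.12), Mmp9 (-0.81) and Bglap (-1.48), beside 7.24% of all genes, while the difference for Mmp13 was 0.03 (95% interval -0.50 to 0.55). The FM and AD effects differed for no member by edgeR (0.639% of all genes in either direction), 3 members had an unadjusted p under 0.05 and DESeq2 called 0. The set is also the batch, so odors and batches cannot be told apart here.

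**Figure D4:**
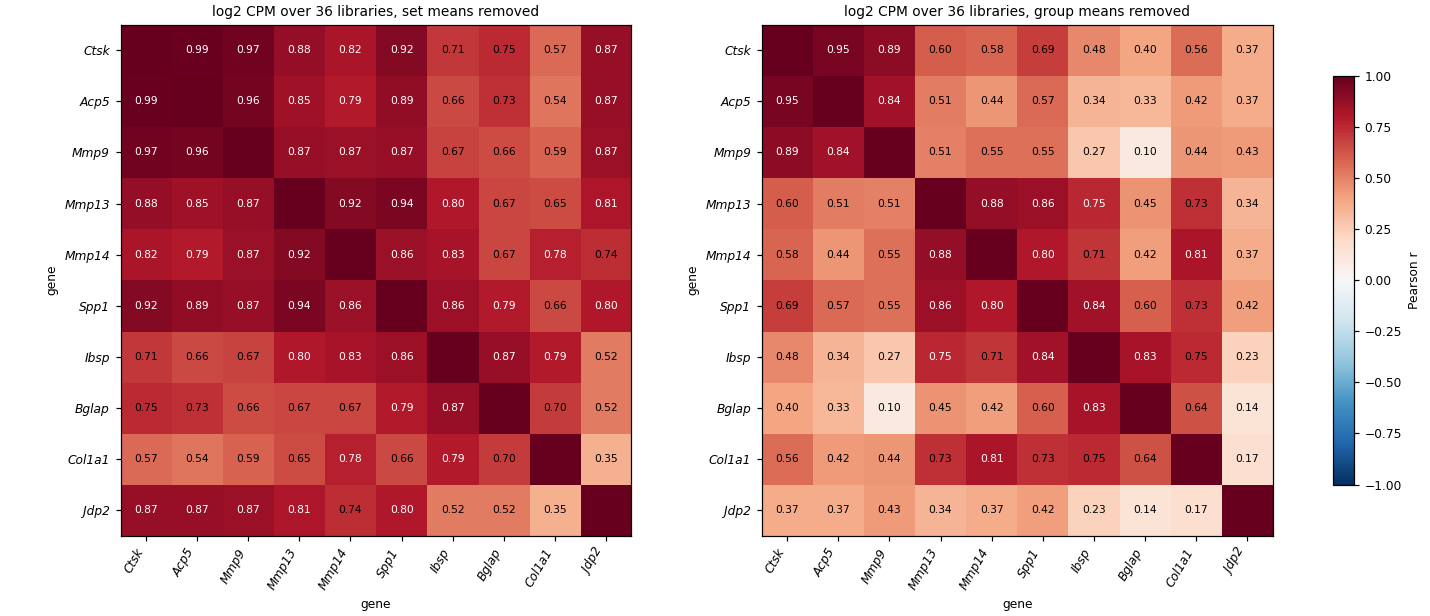
Pearson correlation of log2 CPM between the 10 genes over 36 libraries, after set means (left) or group means (right) were removed; red is positive. On the right the osteoclast block of Ctsk, Acp5 and Mmp9 reaches 0.84 to 0.95, while its correlation with Ibsp, Bglap and Col1a1 is 0.10 to 0.56.

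Within groups, osteoclast and matrix genes varied in partly separate ways. After group means were removed, so that the odor effect was left out, Ctsk, Acp5 and Mmp9 correlated at r = 0.837 to 0.95 over the 36 libraries, and Ibsp, Bglap and Col1a1 at 0.636 to 0.828. Between those trios r ran from 0.095 for Mmp9 with Bglap to 0.56 for Ctsk with Col1a1. Mmp13, Mmp14 and Spp1 correlated at 0.80 to 0.88 among themselves and at 0.71 to 0.84 with Ibsp and Col1a1. Jdp2 had its highest value, 0.428, with Mmp9. The median r of a member with any gene was 0.007 over 18435 genes. Libraries share their set, depth and dissection, and these values are a description. The AD mixture shows the split within 1 group: its replicate 2 was the lowest of the 3 in Ctsk (326 CPM), Acp5 (240) and Mmp9 (91.1) and the highest in Ibsp (536), Bglap (460) and Col1a1 (2897), while replicate 1 was the highest in Ctsk, Acp5 and Mmp9 and replicate 3 the lowest in Ibsp, Bglap and Col1a1. In the octanal group replicate 3 was the highest of its group in all 10 members.

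The genes most like the members were named by their mean r after set means were removed, over 36 libraries. Differences between odor groups, those that chose members included, remain in these values, which are a description. Among the members themselves the median r of all pairs was 0.799 in this way and 0.55 after group means were removed. Nearest to Ctsk, Acp5 and Mmp9 were Hexa (0.935), Pstpip1 (0.932), Capg (0.919), Pdgfb (0.917) and Oscar (0.912), followed by Slc37a2, Slc9b2, Ctsz, Clec12a and Rab38 down to 0.90. Hexa encodes a lysosomal hexosaminidase subunit, Capg an actin-capping protein and Oscar a receptor of osteoclasts. Nearest to Ibsp, Bglap, Col1a1 and Spp1 were Rcn3 and Sparc (0.882 each), Pcolce (0.874), Ppic (0.869) and Serpinf1 (0.865), then Ckap4, Cthrc1, Bglap2, Cavin3 and Crtap down to 0.85. Bglap2 can share counts with the member Bglap. Sparc encodes osteonectin, and Pcolce and Crtap encode proteins that process or modify collagen. The nearest gene to Mmp13 was Sfrp4 (0.94), a secreted Wnt antagonist, to Mmp14 Postn (0.936), a matrix protein, and to Jdp2 Slc9b2 (0.888), a sodium-proton exchanger of osteoclasts. Several members have neighbors of related kind on the chromosome: Ibsp lies between Dmp1 and Mepe, Spp1 next to Mepe, Jdp2 between Fos and Batf, Mmp13 next to Mmp12 and Ctsk next to Ctss.

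**Figure D5:**
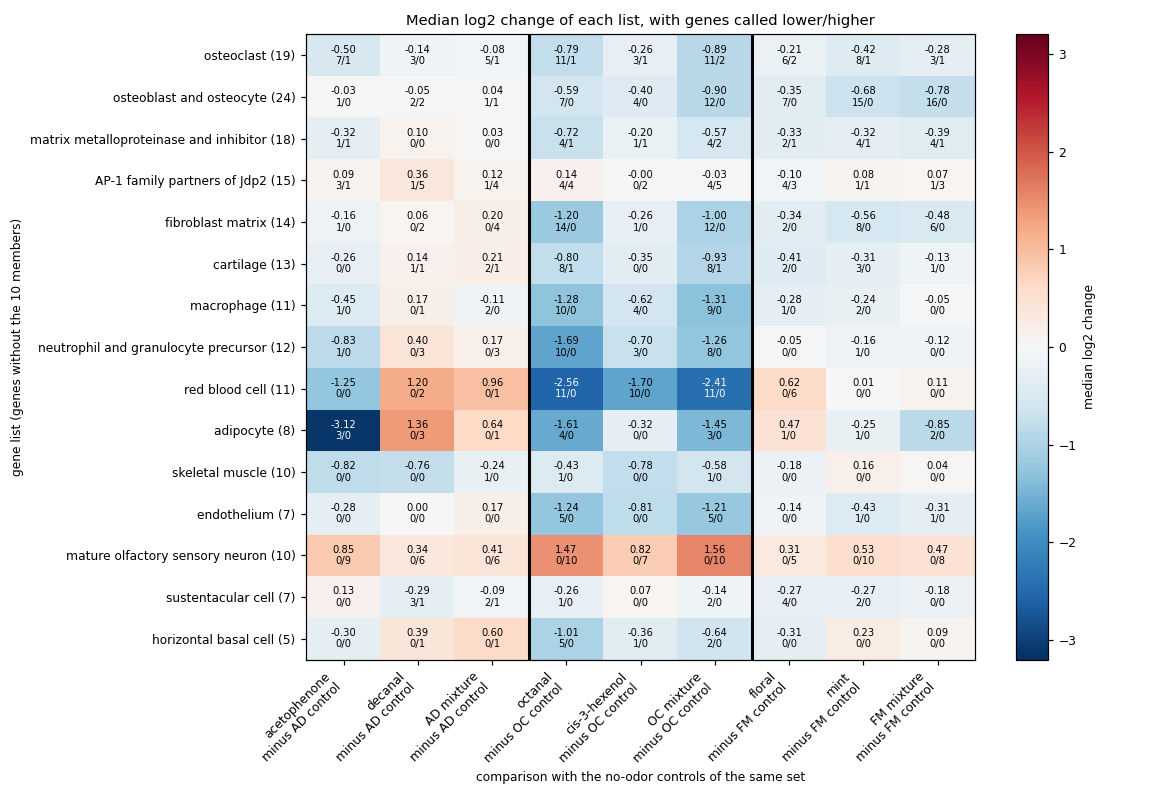
Median log2 change of 15 gene lists without the 10 members, in the 9 comparisons of an odor group with the controls of its set; the lower line in each cell gives genes called lower and higher (edgeR, adjusted p under 0.05), and the number of genes of each list stands in brackets. The osteoblast and osteocyte list has a median of -0.90 with the OC mixture and -0.03 with acetophenone.

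Other genes of the same lineages gave a mixed picture. The lists were made with earlier results known, and genes were named by their smallest p. The AD and FM means also hold libraries that chose members. The values and adjusted p-values of list genes, here and in the list paragraphs below, are therefore a description. Of 19 further osteoclast genes, 18 were tested in the OC set: 11 were lower and 1 higher after octanal, 3 and 1 after cis-3-hexenol, and 11 and 2 with the OC mixture, with medians of -0.79, -0.26 and -0.89. All 19 were tested in the AD set, where 7 were lower and 1 higher with acetophenone (median -0.50), 3 were lower with decanal (-0.14) and with the AD mixture 5 and 1 (-0.08). The floral, mint and mixed fragrances gave 6 lower and 2 higher, 8 and 1, and 3 and 1 of 18 tested (-0.21, -0.42 and -0.28). Of all genes, 14.4%, 3.16% and 14.8% were called lower with octanal, cis-3-hexenol and the OC mixture, and 1.27% with acetophenone. For the floral, mint and mixed fragrances this share was 5.35%, 4.07% and 3.22%. With decanal and the AD mixture 22.3% and 21.4% were called in either direction, and nothing is read from list counts with these odors. The same shares apply to the lists below. For genes called higher no such share is given, and nothing is read from those counts. Averaged over the OC odors, Itgb3, the integrin chain that anchors osteoclasts to bone, fell by 1.87 on the log2 scale (adjusted p = 2.04e-06), Oscar by 1.79 (adjusted p = 2.81e-05) and Car2, the carbonic anhydrase that supplies acid, by 1.01 (adjusted p = 3.2e-05). Which cells these falls came from was not tested. Nfatc1, the transcription factor that drives osteoclast formation and also acts in many other cells, went the other way and rose by 1.81 (adjusted p = 1.56e-05), and it rose by 0.60 in the AD set and 0.73 in the FM set (adjusted p = 0.00448 and 0.000593). Atp6v0d2, a subunit of the osteoclast proton pump, fell in all 3 sets, by 1.00 (AD), 0.82 (OC) and 0.74 (FM) (adjusted p = 0.000796, 0.000274 and 0.00125).

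The 24 further osteoblast and osteocyte genes stood near their controls with acetophenone, 1 being lower (median -0.03), and likewise with decanal (2 lower and 2 higher, -0.05) and the AD mixture (1 and 1, 0.04). In the OC set 7, 4 and 12 of 23 tested were lower after octanal, cis-3-hexenol and their mixture (-0.59, -0.40 and -0.90), and in the FM set 7, 15 and 16 with the floral, mint and mixed fragrances of 24 tested (-0.35, -0.68 and -0.78). In the OC mean Bglap2 fell by 1.86, Ifitm5 by 1.54, Col1a2 by 1.30 and Sparc by 1.17 (adjusted p = 4.53e-05, 0.000302, 0.000607 and 0.000513). Bglap2 is nearly identical to Bglap and can share its counts, so its fall is not separate from that of the member. In the FM mean Sp7 fell by 1.01, Dmp1 by 0.83 and Pth1r, the parathyroid hormone receptor, by 0.65 (adjusted p = 0.000618, 0.000407 and 0.000591). Sp7 changed by -0.25 in the OC mean without passing.

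Of 14 fibroblast matrix genes 14, 1 and 12 were lower in the OC set (octanal, cis-3-hexenol, mixture), 2, 8 and 6 in the FM set (floral, mint, mixture) and 1 with acetophenone, while 2 and 4 were higher with decanal and the AD mixture. Their summed level was 820 to 1786, 1590 to 1796 and 911 to 1163 CPM in the OC odor groups, against 2215 to 3879 CPM in OC control mice, and 2349 to 3670 CPM with acetophenone, against 2356 to 2597 CPM in AD control mice. After octanal and the OC mixture, 8 and 8 of 11 tested cartilage genes, 5 and 5 of 7 endothelial genes, 4 and 3 of 5 adipocyte genes, 5 and 2 of 5 horizontal basal cell genes, 1 and 2 of 7 sustentacular cell genes and 1 and 1 of 5 skeletal muscle genes were lower. Of the 18 other matrix metalloproteinases and their inhibitors 15 were tested in the OC set, of which 4, 1 and 4 were lower after octanal, cis-3-hexenol and their mixture. Timp1, the secreted inhibitor of this enzyme family, fell by 1.72 in the OC mean and 0.68 in the FM mean (adjusted p = 3.62e-06 and 0.00523), whereas Mmp24, a membrane-type protease of neurons, rose by 1.09 in the OC mean (adjusted p = 0.00201).

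The AP-1 family partners of Jdp2 did not move as one. Of 15 genes 4 were lower and 4 higher after octanal (list median 0.14), 2 were higher after cis-3-hexenol, and 4 were lower and 5 higher with the OC mixture (-0.03). Fosb, an immediate early gene of active neurons, rose by 2.61, 3.14 and 2.00 in the AD, OC and FM means (adjusted p = 0.000373, 0.000227 and 0.00185), and Fosl1 rose by 2.60 in the OC mean (adjusted p = 0.000503). Fosl2, an AP-1 factor of osteoblasts and osteoclasts, fell by 0.76 in the OC mean (adjusted p = 0.00176). Fos genes thus rose and fell in the same comparison, and the range of Jdp2 over all 36 libraries, 35.5 to 76.6 CPM or 2.16-fold, was the narrowest of the members, against 12.6-fold for Col1a1.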

How the data were processed

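RNA sequencing libraries of pS6 immunoprecipitates from 36 mice were analysed. The authors deposited expected counts per gene, which need not be whole: 11.1% to 16.4% of the values in a library were fractional. STAR 2.7.10b, Salmon 1.10.1, R 4.4.2 and GRCm39 are named in the submitters' processing notes, without their roles, and the annotation is not given in the sources used here. Of 57010 gene identifiers 52029 were named through GENCODE (GRCm38), and the unnamed ones held 0.284% to 0.651% of a library's counts. Expected counts were rounded and tested with edgeR 4.0.16 (quasi-likelihood, TMM, minimum count 10, minimum total 15, prior count 0.125) in R 4.3.3, in 1 fit per set of 12 libraries with 4 groups, and in 1 fit of all 36 libraries for differences between sets. Adjusted p-values are Benjamini-Hochberg over all genes tested, two-sided, called under 0.05, and 95% intervals are from the standard error under a normal approximation, unadjusted. The tests were checked on simulated data. DESeq2 1.42.0, other scalings, no filter, fewer or more libraries, a replicate block and leaving out each replicate were tried as alternatives. Near-identical genes were those aligning at 95% identity or more over 200 bases. The mice of a group are separate animals per the labels. The members and all gene lists were chosen with earlier results of these data known. All members are named. From each list at most 4 other genes are named, those called in the mean odor comparison of a set with the smallest p; some are not reported here. Where such a gene is named for one set, its value in another may stand beside it. The genes most like the members are those with the highest mean correlation after set means were removed.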

Additional observations from a re-analysis of the deposited data

Results flagged for a closer look

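In the OC set the mean odor effect was below that in the AD set for 8 members, past the threshold of a fit of the difference itself. The AD mean holds the acetophenone and AD control libraries, and the FM mean the mint, FM mixture and FM control libraries, that chose members, so these differences are a description and no support is drawn from them. The log2 differences were -1.82 for Bglap, -1.54 for Col1a1, -1.33 for Acp5, -1.30 for Ctsk, -1.10 for Spp1, -1.10 for Ibsp, -0.87 for Mmp9 and -0.49 for Mmp14. Against the FM set the OC effect was lower for 4 members, by -1.48 for Bglap, -1.31 for Acp5, -1.12 for Ctsk and -0.81 for Mmp9. DESeq2 gave the same counts of 8 and 4. Each set is also a batch, so the odors and the batches cannot be told apart.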

How the results depend on the processing

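Of 2760 single values recomputed under the alternatives, 2536 kept direction and side of the threshold, 121 lost their call and 103 gained one, and no called value changed sign. Of 1504 values called in neither fit, 85 changed sign. All 10 members stayed called lower in the OC mean under every setting run for it, and in the OC mixture when any one replicate was left out, while octanal gave 9 to 10. The cause of the moved counts was not tested. With library totals alone the count was 1 for the AD mixture (0 before), 3 for cis-3-hexenol (6 before) and 7 for the floral fragrance (3 before). Scaling on the olfactory receptor genes gave 1 for the AD mean (4 before), 10 for cis-3-hexenol, 2 for the OC mixture against cis-3-hexenol (4 before) and 0 for octanal against cis-3-hexenol (4 before). Without the filter on low counts the counts were 1 for the AD mixture, 7 for the AD mean, 1 for the OC mixture against octanal (0 before), 8 for floral, 4 for the FM mixture against floral (0 before) and 7 for floral against mint (0 before). DESeq2 gave 5 for floral, 1 for the FM mixture against floral and 1 for floral against mint. With only the 6 libraries compared there were 7 for the OC mixture against cis-3-hexenol, 1 for octanal against cis-3-hexenol, 6 for floral and 1 for floral against mint. With all 36 libraries in 1 fit there were 7 for the OC mixture against cis-3-hexenol, 1 for floral and 3 for the FM mixture (6 before). Leaving out one replicate gave 0 to 1 for decanal, 0 to 1 for the AD mixture, 3 for cis-3-hexenol each time, 0 to 3 for the OC mixture against cis-3-hexenol, 0 to 8 for octanal against cis-3-hexenol and 1 to 4 for floral. With library totals alone the median log2 change of all genes was -0.14 after octanal, 0.18 after cis-3-hexenol and -0.16 with floral. With receptor scaling it was -0.21 and -0.47 after octanal and cis-3-hexenol and -0.51 with the OC mixture. In the main fit these medians were -0.043 (octanal), 0.045 (cis-3-hexenol), -0.025 (floral) and -0.051 (OC mixture).

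With a replicate block the counts were 5 for cis-3-hexenol (Spp1 adjusted p = 0.051), 3 for octanal against cis-3-hexenol, 2 for floral, 6 for acetophenone and 5 for the FM mixture, and all other counts were as without it. After group means were removed, same-numbered libraries correlated at -0.096 to 0.112 in the AD set. The range was -0.081 to 0.187 in the OC set and -0.194 to 0.106 in the FM set. Differently numbered libraries were not set beside them, so whether the numbers pair the mice cannot be told.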
